A study of Mus musculus with 12 samples.

Results

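A set of 9 genes that guide monocytes into tissue was followed in mouse oral tumours: the chemokine genes Ccl2, Ccl7, Ccl8, Ccl12, Ccl3 and Ccl4, the receptor gene Ccr2, and the ligand and receptor pair Cx3cl1 and Cx3cr1. They were taken by symbol from a table of 55401 genes, which held 9 of the 9. Of all genes 15813 passed a filter on low values (at least 1 FPKM in at least 3 libraries), these 9 among them. By the labels, the tumours grew from MTC-Q1 mouse oral cancer cells injected orthotopically in C57BL/6 mice, which were treated once tumours measured 100 mm3. There were 4 treatments with 3 libraries each: a control IgG (Ctrl-IgG); anti-CSF1R antibody (aCSF1R), directed at a receptor that macrophages depend on; IL-10-Fc, in which interleukin-10 is carried by the Fc portion of an antibody; and BF10, a fusion protein that carries both interleukin-10 and the anti-CSF1R antibody. The series design speaks of 4 doses, the treatment protocol of 6. The labels give all groups the same cell line and host strain. The mice were 6 to 8 weeks old when bought, and no sex is stated for this tumour model. The labels do not say that each library came from a separate mouse, so p-values measure the spread between these libraries.

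Chemokines are small secreted proteins that bind receptors on white blood cells and direct their movement. Classical monocytes leave the bone marrow and enter inflamed or tumour tissue through CCR2, which binds CCL2, CCL7 and CCL12, while CX3CR1 is carried by patrolling monocytes and many tissue macrophages and binds CX3CL1, a chemokine that is anchored in the membrane until it is shed. Mouse CCL8 acts mainly on CCR8, and CCL3 acts on CCR1 among other receptors. Monocytes that settle in tissue need CSF1R signalling to become and stay macrophages, and interleukin-10 restrains many inflammatory genes of myeloid cells.

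Of the 6 CC ligand genes, 4 lie side by side on the plus strand of chromosome 11 (GRCm38): Ccl2 at chr11:82035571-82037453, Ccl7 at chr11:82045712-82047525, Ccl12 at chr11:82101845-82103400 and Ccl8 at chr11:82115185-82116799. They span 81.2 kb, with Ccl11 between Ccl7 and Ccl12. Their results went in opposite directions although the coding sequences are alike, so a stretch of each is shown. Each line below holds 60 coding bases of exon 2, read from the annotated transcripts, and the capitals mark the codons of the adjacent cysteines that give CC chemokines their name.
Ccl2 (chr11:82036497-82036556): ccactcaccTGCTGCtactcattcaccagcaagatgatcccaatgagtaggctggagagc
Ccl7 (chr11:82046529-82046588): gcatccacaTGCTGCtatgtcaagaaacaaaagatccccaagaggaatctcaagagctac
Ccl12 (chr11:82102625-82102684): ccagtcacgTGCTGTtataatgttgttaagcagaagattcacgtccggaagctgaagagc
Ccl8 (chr11:82116047-82116106): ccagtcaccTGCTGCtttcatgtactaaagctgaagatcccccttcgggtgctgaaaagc
Over their aligned coding bases the 4 genes were 64.6% to 70.8% identical in pairs, with Ccl7 and Ccl8 the least alike and Ccl12 and Ccl8 the most alike. No stretch of 31 bases in the transcripts of the 6 CC ligands or of Cx3cl1 occurred in a transcript of another gene. In Ccr2 3.41% and in Cx3cr1 1.75% of such stretches were shared with other genes, none of them with another of the 9. Ccl2 overlaps Gm17268 on the other strand, and the libraries were stranded.

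Ccl3 lies at chr11:83647844-83649355 on the minus strand and Ccl4 at chr11:83662584-83664683 on the plus strand, 16.8 kb from end to end. Ccr2 lies at chr9:124101950-124113557 (plus strand) and Cx3cl1 at chr8:94772009-94782427 (plus strand). The annotated span of Cx3cr1, chr9:119901616-120069879 on the minus strand, also holds Gorasp1, Csrnp1 and Xirp1 on its strand.

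Promoter windows from RefSeq (GRCm38.p6), 250 bases before to 50 after each start, were held for 6 of the 9 genes. The 250 bases before the starts of Ccl12 and Ccl8 are shown because these neighbours had their highest levels in the same treatment groups. Capitals mark the letters GAGGAA or their reverse complement, the core that ETS factors such as the myeloid factor PU.1 can bind.
Ccl12 (chr11:82101595-82101844, plus strand): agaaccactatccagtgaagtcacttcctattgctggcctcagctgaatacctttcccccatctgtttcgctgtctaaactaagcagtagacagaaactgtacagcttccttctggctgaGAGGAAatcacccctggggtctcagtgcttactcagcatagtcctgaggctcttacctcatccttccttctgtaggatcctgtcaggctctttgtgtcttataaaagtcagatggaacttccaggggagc
Ccl8 (chr11:82114935-82115184, plus strand): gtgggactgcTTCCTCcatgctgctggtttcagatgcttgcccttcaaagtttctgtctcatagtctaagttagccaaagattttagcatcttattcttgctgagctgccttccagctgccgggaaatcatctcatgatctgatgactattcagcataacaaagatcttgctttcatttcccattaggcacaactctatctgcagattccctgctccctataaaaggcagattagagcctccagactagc
The match began 130 bases before the start of Ccl12 and 240 bases before that of Ccl8. The letters were also found, on either strand, in the windows of Ccl3 and Cx3cl1, and they occurred in 28.3% of the 32851 windows of all genes. TTC and GAA with any 3 bases between (STAT core, 8.30% of all windows) and GAAA repeated after any 2 bases (interferon-stimulated core, 3.44%) were in none of the 6 windows. GGG and CC with any 5 bases between (NF-kB core, 50.8%) were in the window of Cx3cr1 alone, with both strands searched. No motif overlapped another. A match of letters is a description and shows no binding.

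Several properties of the libraries stood beside the treatments. The 6 Ctrl-IgG and aCSF1R libraries had Xist, the transcript of the inactive X chromosome, at 0.01 to 0.04 FPKM, and the class II gene H2-Ea, which C57BL/6 mice do not express, at 0.04 to 0.27 FPKM. The 6 IL-10-Fc and BF10 libraries had Xist at 17.1 to 30.7 FPKM and H2-Ea at 553 to 1727 FPKM, which goes against the labelled strain. The Y-linked gene Eif2s3y was at 4.23 to 11.3 FPKM in the first 6 libraries, at 0 to 0.05 in 5 of the others and at 3.29 in BF10 replicate 3. The summed level of 6 simple epithelium markers was 0.90 to 9.11 FPKM in the first 6 libraries and 598 to 1577 FPKM in the others. Stratified keratinocyte markers summed to 1373 to 1723 FPKM in Ctrl-IgG replicate 3 and aCSF1R replicates 1 and 2. They summed to 2.31 to 36.7 FPKM in the other 9 libraries. Ctrl-IgG replicate 3 and aCSF1R replicates 1 and 2 also had skeletal muscle markers at 572 to 963 FPKM. The other Ctrl-IgG and aCSF1R libraries had them at 34.8 to 86.3 FPKM. The source of the keratinocyte and muscle RNA was not tested. The first 6 libraries and the other 6 thus form 2 sets. A difference between the treatments and a difference between these 2 sets cannot be told apart in any comparison of IL-10-Fc or BF10 with Ctrl-IgG or aCSF1R. Only aCSF1R against Ctrl-IgG and BF10 against IL-10-Fc compare libraries of the same set, and the sets were not uniform. Beside its Eif2s3y, BF10 replicate 3 had the muscle gene Acta1 at 30.5 FPKM, against 0.03 to 0.30 FPKM in the other IL-10-Fc and BF10 libraries.

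Sample titles carry a code whose first number was 4 or less in 7 libraries and 5 or more in 5 (the third replicate of Ctrl-IgG, aCSF1R and IL-10-Fc, and BF10 replicates 2 and 3); its meaning is not stated. The FPKM sums ran from 637596 to 976950, and the mitochondrial share was 6.57% to 9.04% in 4 libraries (BF10 replicate 1, IL-10-Fc replicates 1 and 2, Ctrl-IgG replicate 2) against 2.99% to 3.61% in the other 8.

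Values are FPKM, fragments scaled to transcript length and to the fragments of the library, so levels can be compared between genes. Fold changes are on the log2(FPKM + 1) scale, from limma fitted across all 15813 tested genes and all 12 libraries, and a gene was called at a Benjamini-Hochberg adjusted p under 0.05 and a fold of at least 1.5. Taken over all tested genes, the middle (median) log2 change was -0.39 for IL-10-Fc and -0.12 for BF10 against Ctrl-IgG, 0.11 for aCSF1R against Ctrl-IgG, -0.51 and -0.21 for IL-10-Fc and BF10 against aCSF1R, and 0.34 for BF10 against IL-10-Fc.

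**Figure D1:**
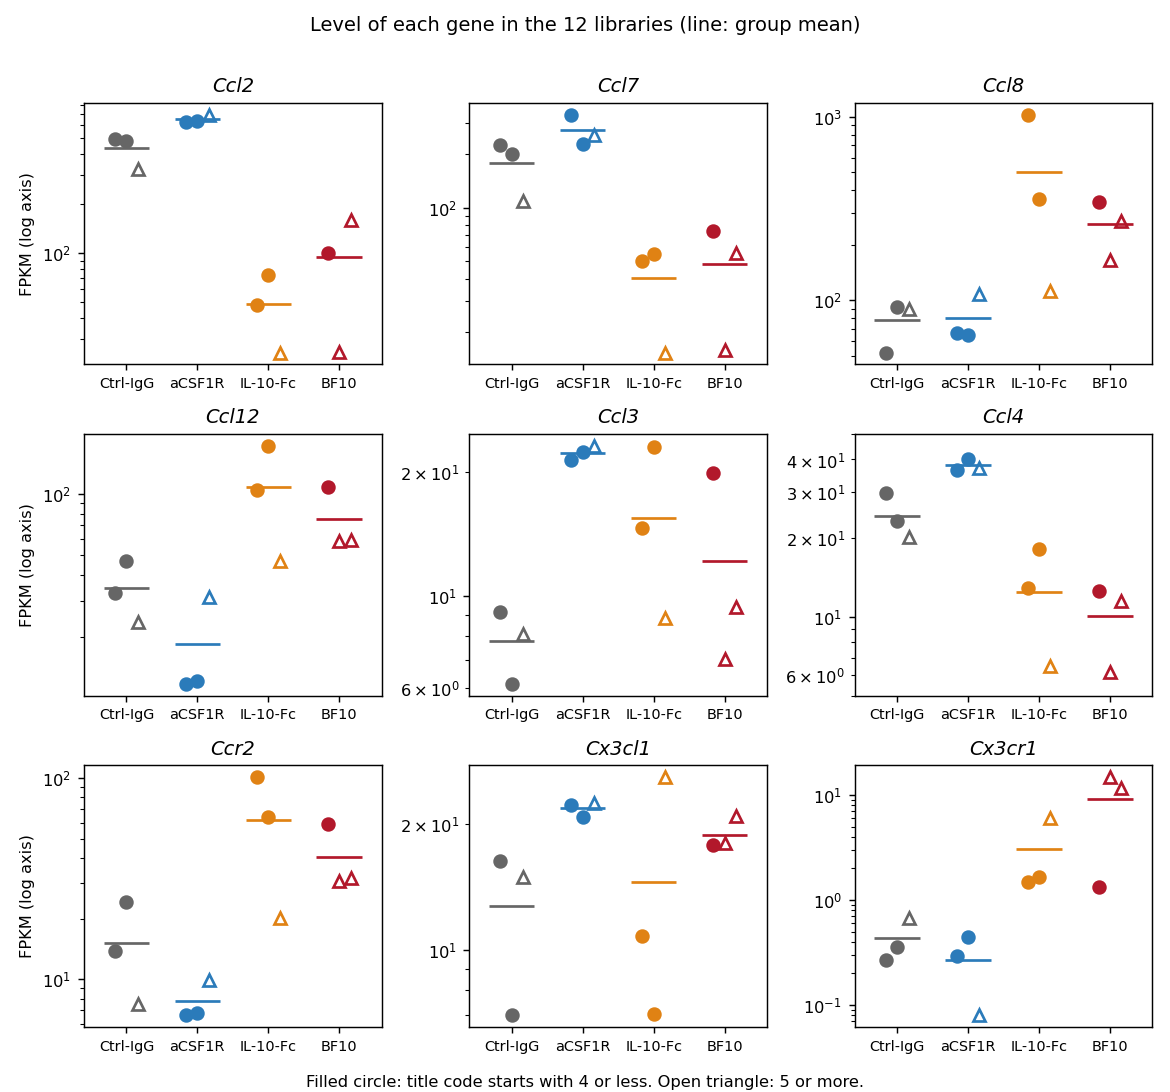
Level of each of the 9 genes (vertical axis, FPKM on a log axis) in every library of the 4 treatment groups, with a line at the group mean and filled circles or open triangles for the number in the sample title. Ccl2, Ccl7 and Ccl4 were lower in all 6 IL-10-Fc and BF10 libraries than in any Ctrl-IgG or aCSF1R library, and Ccl8, Ccl12 and Cx3cr1 were higher in all 6.

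Ccl2, the main CCR2 ligand, was the most abundant of the 9 genes in Ctrl-IgG, at 492, 482 and 327 FPKM in replicates 1 to 3. It stood at 630, 638 and 696 FPKM in aCSF1R. In IL-10-Fc it was at 48.1, 73.8 and 24.7 FPKM and in BF10 at 100, 25.0 and 160 FPKM. Every IL-10-Fc and BF10 library lay below every other library, and the BF10 libraries spread most widely in proportion to their mean. Against Ctrl-IgG, Ccl2 fell by 3.23 (SE 0.58) on the log2 scale in IL-10-Fc (limma adjusted p = 0.00185) and by 2.51 (SE 0.58) in BF10 (limma adjusted p = 0.00916). Both calls held whichever single library was left out, at log2 changes of -3.59 to -2.82 and of -3.06 to -1.75.

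Ccl7, the neighbour of Ccl2 and likewise a CCR2 ligand, followed the same order at a lower level. Its values were 226, 202 and 109 FPKM in Ctrl-IgG and 334, 229 and 259 FPKM in aCSF1R. They were 50.2, 55.2 and 15.3 FPKM in IL-10-Fc and 74.0, 15.9 and 55.5 FPKM in BF10. The 6 IL-10-Fc and BF10 libraries again lay below the other 6. The fall was 2.25 (SE 0.59) on the log2 scale in IL-10-Fc (limma adjusted p = 0.0139) and 2.05 (SE 0.59) in BF10 (limma adjusted p = 0.0270). The call in IL-10-Fc was lost without Ctrl-IgG replicate 1 (log2 change -2.05, limma adjusted p = 0.0563), and that in BF10 without Ctrl-IgG replicate 1 or 2 or BF10 replicate 2 (log2 changes of -1.85, -1.93 and -1.40, limma adjusted p of 0.0939, 0.0760 and 0.0996). With median-of-ratios size factors neither was called (log2 changes of -1.76 and -1.99, limma adjusted p of 0.0878 and 0.0669), and without the filter on low values that in BF10 was lost too (limma adjusted p = 0.0571).

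Ccl8, at the far end of the same cluster, went the other way. Ctrl-IgG libraries had 51.9, 91.5 and 89.5 FPKM and aCSF1R libraries 66.6, 64.4 and 109 FPKM. IL-10-Fc libraries had 1028, 358 and 112 FPKM and BF10 libraries 343, 166 and 271 FPKM. All 6 IL-10-Fc and BF10 values exceeded all others, but IL-10-Fc replicate 3 did so by little. Ccl8 rose in IL-10-Fc by 2.19 (SE 0.64) on the log2 scale over Ctrl-IgG (limma adjusted p = 0.0234). In BF10 the difference was 1.71 (SE 0.64) and was not called (limma adjusted p = 0.0760). The call in IL-10-Fc was lost without Ctrl-IgG replicate 1 or IL-10-Fc replicate 1 or 2, at log2 changes of 1.92, 1.40 and 2.16 (limma adjusted p of 0.0885, 0.0752 and 0.0650).

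Ccl12, a CCR2 ligand of the mouse that is close to CCL2 in function, also stood higher with interleukin-10. It was at 32.9, 47.0 and 23.8 FPKM in Ctrl-IgG and at 11.8, 12.3 and 31.3 FPKM in aCSF1R. It reached 104, 171 and 47.1 FPKM in IL-10-Fc and 107, 58.9 and 59.4 FPKM in BF10. The lowest IL-10-Fc library, 47.09 FPKM, and the highest Ctrl-IgG library, 47.01 FPKM, were almost level. Ccl12 rose in IL-10-Fc by 1.48 (SE 0.50) on the log2 scale (limma adjusted p = 0.0434), and the difference of 1.09 (SE 0.50) in BF10 was not called (limma adjusted p = 0.145). The call in IL-10-Fc was lost in 8 of the 12 fits without 1 library: without Ctrl-IgG replicate 1 or 3, IL-10-Fc replicate 1 or 2, aCSF1R replicate 1 or 2, or BF10 replicate 2 or 3 (limma adjusted p of 0.052 to 0.166 at log2 changes of 1.05 to 1.48).

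**Figure D2:**
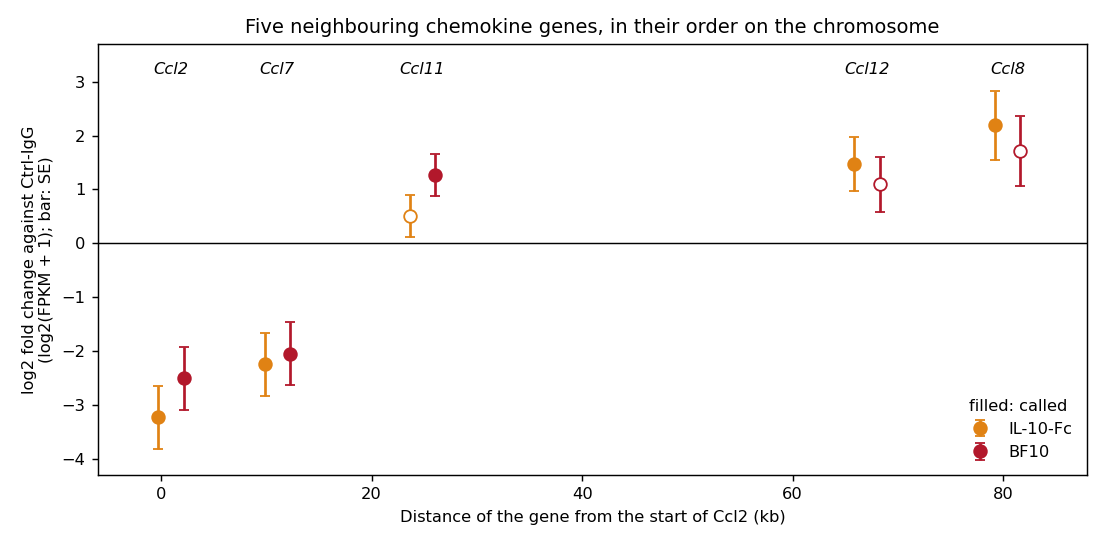
Log2 fold change against Ctrl-IgG (vertical axis, log2(FPKM + 1) scale, bars are the SE) of 5 neighbouring chemokine genes by their distance from the start of Ccl2 (horizontal axis, kb), for IL-10-Fc and BF10, with filled points where the gene was called. Ccl2 and Ccl7 lie at -3.23 to -2.05, and Ccl12 and Ccl8 at 1.09 to 2.19.

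Because these 4 ligand genes were measured in the same libraries, their shares of the summed level do not depend on the scaling of a library. Ccl2 made up 58.6% to 61.3% of the sum in Ctrl-IgG and 60.4% to 67.6% in aCSF1R. Its share was 3.91% to 12.4% in IL-10-Fc and 9.41% to 29.2% in BF10. Ccl8 held 6.46% to 16.3% in Ctrl-IgG and 6.39% to 9.91% in aCSF1R, but 54.5% to 83.6% in IL-10-Fc and 49.7% to 62.5% in BF10. The leading gene was thus Ccl2 in each Ctrl-IgG and aCSF1R library and Ccl8 in each IL-10-Fc and BF10 library. The ratio of Ccl2 to Ccl12 was 10.3 to 14.97 in Ctrl-IgG and 22.3 to 53.2 in aCSF1R, against 0.432 to 0.525 in IL-10-Fc and 0.425 to 2.69 in BF10. The sum itself overlapped between Ctrl-IgG (550 to 822 FPKM) and both IL-10-Fc (199 to 1231 FPKM) and BF10 (266 to 625 FPKM), and was 944 to 1095 FPKM in aCSF1R. Ccl11, the eosinophil attractant that lies between Ccl7 and Ccl12, was at 3.06 to 11.7 FPKM in Ctrl-IgG and 13.1 to 21.2 FPKM in BF10, a rise of 1.26 (SE 0.39) on the log2 scale (limma adjusted p = 0.0368). It was not called in IL-10-Fc (log2 change 0.51, limma adjusted p = 0.333).

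**Figure D3:**
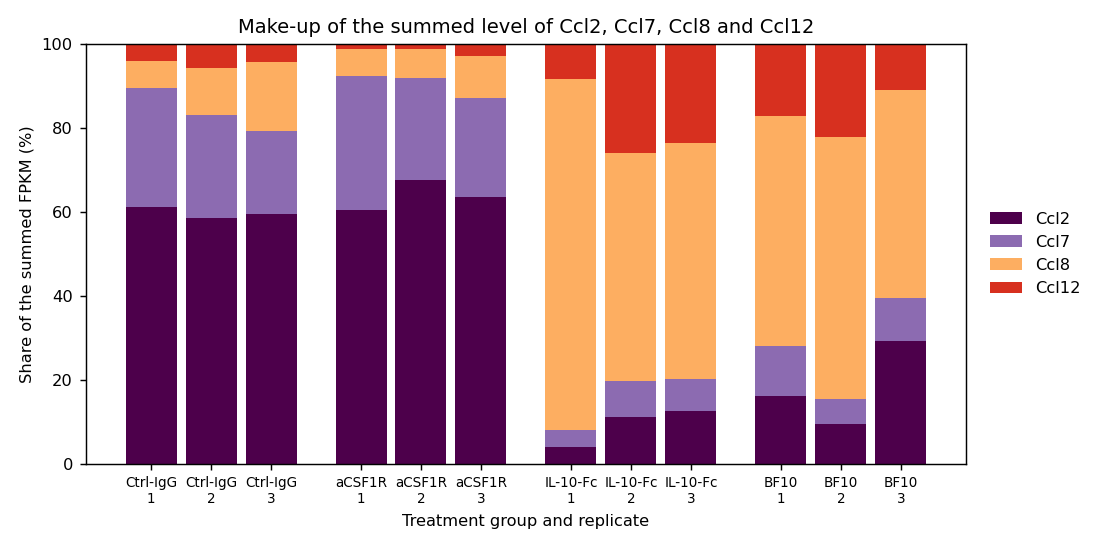
Share of each of Ccl2, Ccl7, Ccl8 and Ccl12 in their summed FPKM (vertical axis, %) in each library (horizontal axis, treatment group and replicate). Ccl2 holds 58.6% to 67.6% of the bars of Ctrl-IgG and aCSF1R and 3.91% to 29.2% of those of IL-10-Fc and BF10, where Ccl8 holds 49.7% to 83.6%.

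Ccl3 and Ccl4, neighbours that macrophages, T cells and NK cells all make, differed from each other. Ccl4 was at 29.8, 23.3 and 20.2 FPKM in Ctrl-IgG and 36.6, 40.0 and 37.3 FPKM in aCSF1R. It was at 12.9, 18.1 and 6.47 FPKM in IL-10-Fc and 12.6, 6.16 and 11.5 FPKM in BF10. No 2 groups overlapped, apart from IL-10-Fc with BF10. Ccl4 fell by 1.00 (SE 0.35) on the log2 scale in IL-10-Fc (limma adjusted p = 0.0482) and by 1.24 (SE 0.35) in BF10 (limma adjusted p = 0.0251). The first call was lost in 9 of the 12 fits without 1 library, those without any one of the Ctrl-IgG or aCSF1R libraries, IL-10-Fc replicate 1 or 3, or BF10 replicate 3 (limma adjusted p of 0.0602 to 0.159, log2 changes of -1.12 to -0.62). The second was lost without BF10 replicate 2 or Ctrl-IgG replicate 1 or 2 (log2 changes of -0.95, -1.09 and -1.26, limma adjusted p of 0.107, 0.0946 and 0.0548). With median-of-ratios size factors, which bring the median change of all genes close to 0, neither was called (log2 changes of -0.52 and -1.18, limma adjusted p of 0.423 and 0.0968).

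Ccl3 was at 9.17, 6.14 and 8.09 FPKM in Ctrl-IgG and at 21.3, 22.3 and 23.1 FPKM in aCSF1R. Its values were 14.6, 22.9 and 8.87 FPKM in IL-10-Fc and 19.9, 7.07 and 9.44 FPKM in BF10. All aCSF1R libraries stood well above all Ctrl-IgG libraries, while IL-10-Fc and BF10 overlapped with Ctrl-IgG. It was not called in IL-10-Fc (log2 change 0.83, SE 0.38, limma adjusted p = 0.117) or in BF10 (log2 change 0.47, SE 0.38, limma adjusted p = 0.423) against Ctrl-IgG. Within libraries the ratio of Ccl3 to Ccl4 was 0.263 to 0.401 in Ctrl-IgG, 0.558 to 0.619 in aCSF1R, 1.14 to 1.37 in IL-10-Fc and 0.824 to 1.58 in BF10. No value of this ratio in one of the first 3 groups fell inside the range of another of them.

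Ccr2, the receptor of classical monocytes, was at 13.7, 24.3 and 7.56 FPKM in Ctrl-IgG and at 6.64, 6.82 and 9.92 FPKM in aCSF1R. It was at 101, 64.2 and 20.1 FPKM in IL-10-Fc and 59.1, 30.8 and 31.9 FPKM in BF10. The ligand with the steepest fall and the receptor therefore stood in opposite order between the sets of libraries. Ccr2 rose in IL-10-Fc by 1.82 (SE 0.56) on the log2 scale (limma adjusted p = 0.0278), although the lowest IL-10-Fc library lay inside the range of Ctrl-IgG. All BF10 libraries lay above all Ctrl-IgG libraries, but the difference of 1.43 (SE 0.56) was not called (limma adjusted p = 0.0857). The call in IL-10-Fc was lost without Ctrl-IgG replicate 1 or 3 or IL-10-Fc replicate 1 or 2, at log2 changes of 1.82, 1.43, 1.33 and 1.65 (limma adjusted p of 0.0742, 0.102, 0.114 and 0.0920).

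Cx3cr1 had the lowest mean of the 9 genes in every group, although it lay above Ccl3 and Ccl4 in BF10 replicates 2 and 3. It was at 0.27, 0.36 and 0.67 FPKM in Ctrl-IgG and at 0.29, 0.44 and 0.08 FPKM in aCSF1R. It was at 1.47, 1.64 and 6.08 FPKM in IL-10-Fc and 1.32, 14.8 and 11.6 FPKM in BF10. It passed the filter of 1 FPKM through the IL-10-Fc and BF10 libraries alone, so its p-values are given without support being drawn from them, here and against aCSF1R. Cx3cr1 rose in BF10 by 2.44 (SE 0.64) on the log2 scale over Ctrl-IgG (limma adjusted p = 0.0165) and was not called in IL-10-Fc (log2 change 1.33, SE 0.64, limma adjusted p = 0.127). In IL-10-Fc it was called with median-of-ratios size factors (1.62, limma adjusted p = 0.0367), with the FPKM sum as a covariate (2.10, 0.00105), without BF10 replicate 1 (1.33, 0.0183), and within title numbers of 4 or less (0.96, 0.00640) and of 5 or more (2.08, 0.00418), the last with 1 library per group. The call in BF10 was lost without BF10 replicate 2 or 3 or Ctrl-IgG replicate 1 (log2 changes of 1.92, 2.09 and 2.36, limma adjusted p of 0.0715, 0.0627 and 0.0563). Its ligand Cx3cl1 was at 16.3, 6.98 and 14.9 FPKM in Ctrl-IgG and 22.2, 20.8 and 22.5 FPKM in aCSF1R. It was at 10.8, 7.03 and 25.9 FPKM in IL-10-Fc and 17.8, 18.0 and 20.8 FPKM in BF10. Cx3cl1 was called in none of the 6 pairwise comparisons.

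Counted over the 9 genes, 3 were called higher (Ccl8, Ccl12, Ccr2) and 3 lower (Ccl2, Ccl7, Ccl4) in IL-10-Fc than in Ctrl-IgG, where 10.1% of all tested genes were called higher and 23.6% lower. In BF10 against Ctrl-IgG, 1 was called higher (Cx3cr1) and the same 3 lower, with backgrounds of 11.8% and 13.2%. Cx3cr1 passed the filter only through libraries in which it was high, so nothing is read from any count that holds it, here or against aCSF1R. The groups did not overlap for 3 genes that were higher (Ccl8, Ccl12, Cx3cr1) and 3 that were lower in IL-10-Fc (backgrounds of 12.2% and 25.2%). They did not overlap for 5 that were higher (Ccl8, Ccl12, Ccr2, Cx3cl1, Cx3cr1) and 3 that were lower in BF10 (17.3% and 21.1%). The 9 genes had a median log2 change of 0.83 in IL-10-Fc and 0.61 in BF10, beside -0.39 and -0.12 for all tested genes. These medians hold Cx3cr1 and are the values of Ccl3 and Cx3cl1, which were not called. Nothing is read from them either, since the called genes went in both directions. These comparisons share the Ctrl-IgG libraries. In IL-10-Fc, Ccl8, Ccl12, Ccr2 and Ccl4 were no longer called when low genes were kept in the test (limma adjusted p of 0.0532, 0.0870, 0.0597 and 0.0852) or when only the compared groups were fitted (0.0795, 0.0795, 0.0905 and 0.127). In BF10, Ccl8 and Ccr2 were called as higher when FPKM was rescaled to TPM (log2 changes of 1.75 and 1.48, limma adjusted p of 0.0449 and 0.0409), with a term for the title number (1.88 and 1.73, 0.0495 and 0.0157) and with the FPKM sum as a covariate (1.82 and 1.53, 0.00471 and 0.000530). That covariate also gave a call for Ccl12 (1.18, limma adjusted p = 0.00676). Both were called without IL-10-Fc replicate 3 (limma adjusted p of 0.0121 and 0.0210), and Ccl8 also without IL-10-Fc replicate 1 (0.0224) and with the compared groups alone (0.0183).

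Against aCSF1R, the genes that were called had the same directions as against Ctrl-IgG. In BF10, Ccl12 rose by 2.05 (SE 0.50), Ccr2 by 2.20 (SE 0.56) and Cx3cr1 by 2.61 (SE 0.64) on the log2 scale (limma adjusted p of 0.0125, 0.0146 and 0.0119), while Ccl2 fell by 3.12, Ccl7 by 2.71 and Ccl4 by 1.87 (limma adjusted p of 0.00288, 0.00689 and 0.00307). These are 3 genes higher and 3 lower, with 11% and 14% of all tested genes called in those directions. Ccl8 differed by 1.67 (SE 0.64) in BF10 and was not called (limma adjusted p = 0.0823). In IL-10-Fc, Ccl8 rose by 2.14, Ccl12 by 2.43 and Ccr2 by 2.58 (limma adjusted p of 0.0221, 0.00373 and 0.00458), and Ccl2 fell by 3.85, Ccl7 by 2.91 and Ccl4 by 1.63 (limma adjusted p of 0.000622, 0.00337 and 0.00453). Here the backgrounds were 11% and 31.2%. The groups did not overlap for Ccl8, Ccl12, Ccr2 and Cx3cr1, higher in both, for Ccl2, Ccl7 and Ccl4, lower in both, and for Ccl3, lower in BF10; over all tested genes 19.8% were higher and 35.9% lower without overlap in BF10, and 15.4% and 40.6% in IL-10-Fc. In BF10 the calls were lost without aCSF1R replicate 1 or 2 for Ccl12 (limma adjusted p of 0.0552 and 0.0517, log2 changes of 1.82 and 1.85), without BF10 replicate 1 or aCSF1R replicate 1 for Ccr2 (0.0525 and 0.0527, 1.90 and 2.11) and without BF10 replicate 2 for Cx3cr1 (0.0521, 2.10). In IL-10-Fc, Ccl8 was lost without aCSF1R replicate 1 or 2 or IL-10-Fc replicate 1 or 2 (limma adjusted p of 0.0661, 0.0676, 0.0741 and 0.0634, log2 changes of 2.04, 2.01, 1.36 and 2.12), with the FPKM sum as a covariate (1.11, 0.0959) and with the compared groups alone (2.14, 0.0580), and Ccl4 was lost with median-of-ratios size factors (log2 change -1.01, limma adjusted p = 0.112).

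The effect of the CSF1R antibody alone was asked by aCSF1R against Ctrl-IgG, which stays within one set of libraries. That set was not balanced in tissue. High keratinocyte and muscle RNA was in aCSF1R replicates 1 and 2 but in Ctrl-IgG replicate 3 alone. The part of this in the values below was not tested. None of the 9 genes was called, nor was any other gene (0% of all tested), while 437 genes had an unadjusted limma p under 0.05. The groups did not overlap for 5 of the 9, all of them ligands that were higher in aCSF1R (Ccl2, Ccl7, Ccl3, Ccl4 and Cx3cl1), and for none that was lower. Over all tested genes 8.87% were higher and 6.04% lower without overlap. Ccl3 had the largest of these differences, 1.42 (SE 0.38) on the log2 scale with a 95% interval of 0.57 to 2.26 (limma: unadjusted p 0.00363, adjusted p 0.958). Ccl2 differed by 0.62 (interval -0.67 to 1.90), Ccl7 by 0.66 (-0.64 to 1.97), Ccl4 by 0.63 (-0.14 to 1.41) and Cx3cl1 by 0.81 (-0.10 to 1.72). The values of Ccl12 (-0.96, interval -2.07 to 0.15) and Ccr2 (-0.76, interval -1.99 to 0.46) had the other sign, and Ccl8 differed by 0.04 (-1.38 to 1.46). Ccl12 was called lower among title numbers of 4 or less, with 2 libraries per group (log2 change -1.63, limma adjusted p = 0.0263), and had a value of 0.38 between the lone libraries with 5 or more. Beside these values, the summed level of 9 macrophage markers was 254 to 273 FPKM in aCSF1R and 429 to 777 FPKM in Ctrl-IgG. In bulk tissue, fewer cells of a type and less RNA per cell cannot be told apart.

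What the antibody part added to interleukin-10 was asked by BF10 against IL-10-Fc. None of the 9 genes was called (smallest limma adjusted p 0.478), with 0.0126% of all tested genes called and 828 at an unadjusted p under 0.05, and the groups overlapped for all 9 (over all tested genes 4.67% were higher and 0.512% lower without overlap). The largest difference was that of Cx3cr1, 1.11 on the log2 scale with a 95% interval of -0.29 to 2.51. The title numbers were not balanced here, being 5 or more in BF10 replicates 2 and 3 but only in replicate 3 of IL-10-Fc. Among numbers of 4 or less, with BF10 replicate 1 alone, the Cx3cr1 difference was -0.14. BF10 replicate 3 also held the Y-linked and muscle RNA given above. Ccl2 differed by 0.72 (-0.56 to 2.00) and Ccr2 by -0.38 (-1.61 to 0.84). The intervals of all 9 genes spanned 0 and reached past a log2 change of 1 in at least one direction.

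A further contrast set the change of BF10 over IL-10-Fc against the change of aCSF1R over Ctrl-IgG, that is, asked whether the fusion differs from its components added on the log2 scale. None of the 9 was called, with 0.00632% of all tested genes called. Ccl3 had the lowest p, with a departure of -1.77 (SE 0.54) and an unadjusted limma p of 0.00762 (adjusted p = 1.00). Its difference of BF10 over IL-10-Fc was -0.36 and that of aCSF1R over Ctrl-IgG 1.42. The mean levels of Ccl3 were 7.80, 22.2, 15.5 and 12.1 FPKM in Ctrl-IgG, aCSF1R, IL-10-Fc and BF10.

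**Figure D4:**
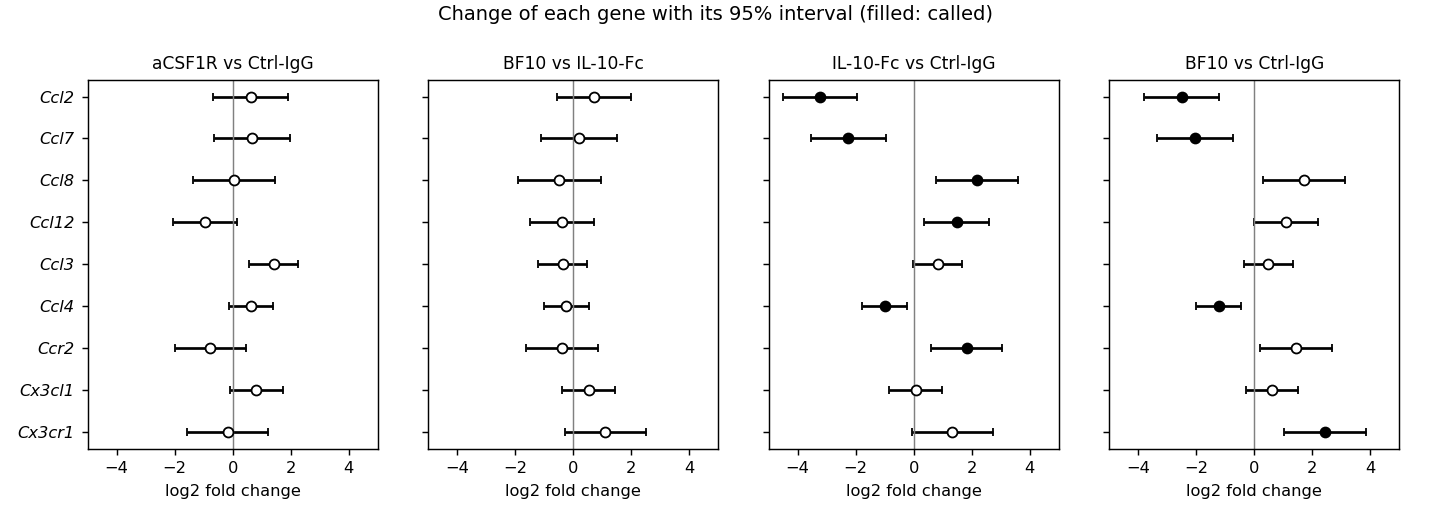
Log2 fold change (horizontal axis, log2(FPKM + 1) scale) of the 9 genes with its 95% interval in 4 comparisons, with filled points where the gene was called. Every interval of BF10 against IL-10-Fc spans 0, and of aCSF1R against Ctrl-IgG that of Ccl3 alone does not (0.57 to 2.26), while 6 genes are filled in IL-10-Fc and 4 in BF10 against Ctrl-IgG.

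Within IL-10-Fc and BF10 the levels of both receptors differed with the number in the sample title, as those of most tested genes did. Ccr2 was at 59.1 to 101 FPKM in the 3 libraries with a number of 4 or less (IL-10-Fc replicates 1 and 2, BF10 replicate 1) and at 20.1 to 31.9 FPKM in the 3 with 5 or more. Cx3cr1 was at 1.32 to 1.64 FPKM in the first 3 and at 6.08 to 14.8 FPKM in the others. Ccl12 (104 to 171 against 47.1 to 59.4 FPKM), Ccl3 (14.6 to 22.9 against 7.07 to 9.44 FPKM), Ccl8 (343 to 1028 against 112 to 271 FPKM) and Ccl4 (12.6 to 18.1 against 6.16 to 11.5 FPKM) followed Ccr2 without overlap. Cx3cl1 did not overlap either, in the direction of Cx3cr1 (7.03 to 17.8 against 18.0 to 25.9 FPKM). Ccl2 (48.1 to 100 against 24.7 to 160 FPKM) and Ccl7 (50.2 to 74.0 against 15.3 to 55.5 FPKM) overlapped. Of the 14013 genes tested in these 6 libraries, 54.6% were higher and 21.2% lower without overlap at title numbers of 5 or more. In a limma fit of these 6 libraries with treatment as a term, the difference of the higher from the lower title numbers was -1.42 (SE 0.29) for Ccr2 and 2.04 (SE 0.27) for Cx3cr1 on the log2 scale (limma adjusted p of 0.00421 and 0.000882). In that fit 7 of the 9 genes passed, but so did 61.5% of the 14013 genes tested. The same 3 libraries with low numbers held the high FPKM sums and mitochondrial shares given above, and the part of these in the split was not tested.

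**Figure D5:**
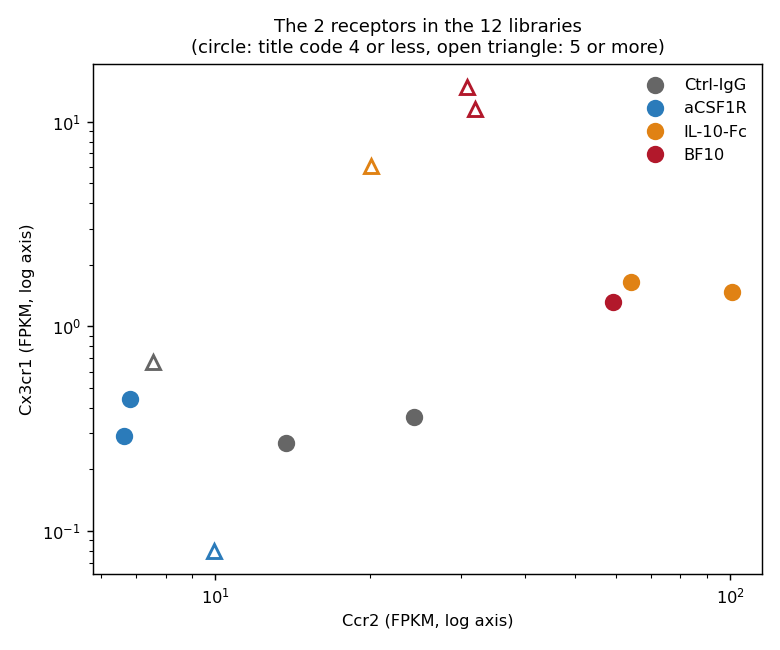
Cx3cr1 against Ccr2 (both FPKM on log axes), 1 point per library, coloured by treatment group, with open triangles for title numbers of 5 or more. The 3 IL-10-Fc and BF10 libraries with low numbers lie at 59.1 to 101 FPKM of Ccr2 and 1.32 to 1.64 FPKM of Cx3cr1, and the 3 with high numbers at 20.1 to 31.9 and 6.08 to 14.8 FPKM.

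Within title numbers, Ccl2 stayed low in IL-10-Fc against Ctrl-IgG, at a log2 change of -3.67 among numbers of 5 or more (limma adjusted p = 0.0552), where the lone library of each of these groups is assumed to vary like the others. Ccl8 in the same comparison was 0.32 (limma adjusted p = 0.822), Ccl12 0.95 (0.161) and Ccr2 1.3 (0.1), all 3 no longer called. In BF10 against Ctrl-IgG, Ccl2 was at -2.27 among numbers of 4 or less and -2.35 among those of 5 or more (limma adjusted p of 0.0988 and 0.118). For Ccr2 the values were 1.64 and 1.92 (limma adjusted p of 0.0224 and 0.0178). Each of these rests on an arm of 1 library, BF10 replicate 1 among the low numbers and Ctrl-IgG replicate 3 among the high ones, whose spread is taken from the other libraries, so they add no support to the comparison over all libraries.

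Among the other genes of the chemokine axis, 20 of 31 were tested, from lists of CC ligands, CC receptors, and decoy receptors and enzymes that act on chemokines. In IL-10-Fc against Ctrl-IgG 5 were called higher and 4 lower (10.1% and 23.6% of all tested genes), and in BF10 6 and 2 (11.8% and 13.2%). None was called in aCSF1R against Ctrl-IgG or in BF10 against IL-10-Fc. The ligand Ccl5, which draws T cells and monocytes, went with Ccl2, Ccl7 and Ccl4: it was at 87.2 to 123 FPKM in Ctrl-IgG, 13.1 to 30.1 FPKM in IL-10-Fc and 30.3 to 63.8 FPKM in BF10. It fell by 2.22 (SE 0.35) and 1.34 (SE 0.35) on the log2 scale (limma adjusted p of 0.000900 and 0.0178). The eosinophil ligand Ccl24 went with Ccl8, from 0.22 to 0.54 FPKM in Ctrl-IgG to 3.00 to 21.1 FPKM in IL-10-Fc and 6.45 to 11.97 FPKM in BF10, rising by 2.98 and 2.83 (SE 0.57 for both, limma adjusted p of 0.00259 and 0.00443). It passed the filter through the IL-10-Fc and BF10 libraries, with all Ctrl-IgG libraries under 1 FPKM, so no support is drawn from its p-values. Nor is any drawn from the counts of higher genes, which hold it.

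Ackr3, a scavenging receptor of CXCL12, rose by 2.44 and 2.20 (SE 0.37 for both, limma adjusted p of 0.000699 and 0.00169). Ccl17, a ligand of CCR4, rose by 1.61 and 1.44, and Ccl25, a ligand of CCR9, fell by 1.73 and 1.59 on the log2 scale in IL-10-Fc and BF10. In IL-10-Fc, Ccl6 (1.91) and Ccr1 (1.92) were also called higher and Nup85 (-0.92) and Ccl1 (-0.80) lower. In BF10, Adam10 (0.84), which sheds CX3CL1 from the membrane, and Dpp4 (1.28), which trims chemokine ends, were called higher. Dpp4 was at 0.38 to 1.19 FPKM in Ctrl-IgG and 0.43 to 0.61 FPKM in aCSF1R. It passed the filter only with the IL-10-Fc and BF10 libraries. No support is drawn from its p-values or from a count of higher genes that holds it or Ccl24, here or against aCSF1R. Against aCSF1R, 7 genes were called higher and 4 lower in BF10 (11% and 14% of all tested genes), and 6 and 7 in IL-10-Fc (11% and 31.2%), among them the decoy receptor Ccrl2 (-1.16 and -1.08). Ccl9 was called in BF10 (1.19), and Adam17 (-1.45) and Ccr7 (-1.49) in IL-10-Fc. Ccr8, the main receptor of mouse CCL8, did not pass the filter and lay between 0.03 and 0.32 FPKM in all 12 libraries.

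Marker levels of cells that can carry or make these genes were read beside them. The macrophage markers summed to 780 to 1279 FPKM in IL-10-Fc and 1019 to 1128 FPKM in BF10, above every Ctrl-IgG library (429 to 777 FPKM), if in IL-10-Fc replicate 3 only just, as Ccl8 and Ccl12 were. In IL-10-Fc the members went different ways. C1qa (means of 165 FPKM in Ctrl-IgG and 336 in IL-10-Fc), C1qc, Mrc1, Trem2 and Fcgr1 had higher means than in Ctrl-IgG. Adgre1, C1qb, Mertk and Cd68 (56.2 and 36.1 FPKM) had lower means. The 7 classical monocyte markers did not separate the groups, with 262 to 384 FPKM in Ctrl-IgG, 153 to 352 in aCSF1R, 150.5 to 446 in IL-10-Fc and 160.1 to 338 in BF10. The best-known of them, Ly6c2, was at 76.0 to 123 FPKM in Ctrl-IgG and 11.96 to 53.7 FPKM in IL-10-Fc, a fall of 1.70 on the log2 scale (limma adjusted p = 0.0371), while another of them, F13a1, rose by 2.38 (limma adjusted p = 0.00113). The members of this list thus went different ways, with Chil3 and Ms4a4c called lower and Plac8 (0.50), Vcan (0.89) and Cd14 (0.67) not called. The 7 nonclassical monocyte markers summed to 66.2 to 104 FPKM in Ctrl-IgG, 47.0 to 53.4 in aCSF1R, 102 to 138 in IL-10-Fc and 113 to 129 in BF10. Of these, Ace, Spn and Fcgr4 had higher means in IL-10-Fc than in Ctrl-IgG. Cd300e (3.46 FPKM in Ctrl-IgG and 0.07 in IL-10-Fc), Nr4a1, Treml4 and Itgal had lower means. The 8 T and NK cell markers summed to 81.4 to 214 FPKM in Ctrl-IgG, 167 to 196 in aCSF1R, 23.3 to 44.3 in IL-10-Fc and 53.5 to 86.1 in BF10. These sums were lower in all IL-10-Fc libraries than in any Ctrl-IgG or aCSF1R library, as Ccl4 was, while BF10 and Ctrl-IgG overlapped in them. Members of this list also went different ways. Gzmb (means of 115, 14.2 and 24.0 FPKM in Ctrl-IgG, IL-10-Fc and BF10), Nkg7, Klrb1c and Ncr1 had lower means in both than in Ctrl-IgG. Cd3d, Cd3e (1.46, 1.35 and 7.02 FPKM), Cd8a and Cd4 had higher means in BF10 than in Ctrl-IgG. The 6 neutrophil markers were at 30.0 to 308 FPKM in Ctrl-IgG, 178 to 336 in aCSF1R, 995 to 4501 in IL-10-Fc and 494 to 1646 in BF10, and the 6 fibroblast markers at 163 to 607, 477 to 581, 1014 to 2308 and 1523 to 1873 FPKM. The 6 endothelial markers were at 25.1 to 50.6, 41.3 to 58.3, 44.9 to 48.4 and 55.3 to 75.1 FPKM, and the 7 skeletal muscle markers at 34.8 to 963, 86.3 to 614, 22.5 to 56.3 and 28.6 to 130 FPKM. No marker of any list was at 0 in all libraries. The part of these cells in the levels of the 9 genes was not tested.

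After the group means were taken out, the deviations of log2(FPKM + 1) over the 12 libraries showed which genes varied together within groups. These correlations share libraries and their scaling and are given as descriptions. Each group also held both low and high title numbers, with which most tested genes differed in IL-10-Fc and BF10. The part of that split in the correlations was not tested. Ccl2 and Ccl7 had a Pearson r of 0.88, Ccl7 and Ccl4 of 0.92, and Ccl12 and Ccr2 of 0.80, while Cx3cr1 was negative with Ccl3 (-0.88) and Ccr2 (-0.71). Among 9577 genes searched, the most alike to Ccl7 were the interferon-induced genes Usp18 and Ifit3 (both 0.96), to Ccl8 the lipid handling genes Cd36 (0.96) and Fabp4 (0.94), and to Ccl4 Psme2 (0.95), an interferon-induced proteasome activator, and Tmem256 (0.94). They were Xlr (0.94) and Rpl35a (0.93) for Ccl2, Acadm and Rcbtb2 (both 0.96) for Ccl12, and n-R5-8s1 (0.97) and Vps37d (0.96) for Ccl3. For Ccr2 they were Phospho2 and Akr1e1 (both 0.98), for Cx3cl1 Twist1 and Prelid1 (both 0.99), and for Cx3cr1 P2rx7 (0.98), an ATP-gated channel of myeloid cells, and Sord (0.97). Without taking out the group means, the most alike were Gzmb for Ccl2 (0.99), Ifit3b for Ccl7 and Zbp1 for Ccl4 (0.97 and 0.96), S100a4 for Ccl12 (0.98), Cysltr1 for Ccr2 (0.98) and Arhgdib for Cx3cr1 (0.98).

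Within groups the levels of different genes could also be set in order. In Ctrl-IgG and aCSF1R, Ccl2 stood above Ccl7 in every library (ratio of 1.88 to 3.00), and Ccl7 above Ccl8, Ccl12, Ccl4, Ccr2, Ccl3 and Cx3cl1. In IL-10-Fc and BF10, Ccl8 led in every library, and Ccl2 and Ccl7 came closer to each other, with a ratio of 0.958 to 2.87. The mean normalized counts that the authors give over the libraries of a comparison ran, over their 4 tables, from 1523 to 10620 for Ccl2, from 188 to 306 for Ccl3 and from 33.8 to 514 for Cx3cr1.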

How the data were processed

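RNA from 12 orthotopic oral tumours was measured by stranded mRNA sequencing, 3 libraries per treatment, grouped by the treatment in the labels. Replicate numbers follow sample order and only name libraries. The submitters' processing notes name STAR 2.7.5a, RSEM 1.3.3 and DESeq2 1.30.0 and the GRCm38 (mm10) build, with no role or order. The authors deposited FPKM values per gene and library, and 4 tables of their own comparisons, whose fold changes and p-values were not used. The mean normalized count in those tables, a signal value the authors scaled and averaged over the libraries of a comparison, was read for the 9 genes.

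Because the files hold FPKM and no counts, the depth of single values is unknown and no count model was fitted. limma 3.58.1 (R 4.3.3; lmFit, contrasts.fit, eBayes with trend) was fitted to log2(FPKM + 1) of 15813 genes with at least 1 FPKM in at least 3 of 12 libraries, without covariates, in 6 pairwise comparisons and the departure contrast, with Benjamini-Hochberg adjustment over all tested genes. Changes of low genes are understated on this scale. The fit was tested on simulated data. No pair of libraries held identical values. Alternatives were another pseudocount, no filter, TPM, size factors, the FPKM sum or the title number as a term, the compared groups alone and leaving out each library; fits within title numbers were added after seeing the data. The 9 genes, the other lists and the naming rule (all 9, the 2 genes most alike to each, and called genes of the chemokine lists) were chosen with earlier results of these data known. Positions and transcripts came from GENCODE M21 (GRCm38). Alignment used Biopython 1.88 in Python 3.11.15. 1 gene of the chemokine lists and 1 of the marker lists are not reported here.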

Additional observations from a re-analysis of the deposited data

How the results depend on the processing

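The calls depend on the libraries and scaling more than their directions do: no value of a called gene changed sign in any alternative run. Leaving out each library in turn gave 1 to 7 genes called of 9 in IL-10-Fc against Ctrl-IgG (6 with all libraries; 1 without Ctrl-IgG replicate 1) and 1 to 6 in BF10 against Ctrl-IgG (4 with all; 1 without BF10 replicate 2). The first count was 2 without the filter on low values, 2 with the compared groups alone and 2 within title numbers of 5 or more. The second was 2 with size factors and 7 with the FPKM sum as a covariate. The count in aCSF1R against Ctrl-IgG was 0, and 1 within title numbers of 4 or less. No paired analysis was possible because the labels give the groups no shared replicate numbers.

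Values of genes that were not called changed sign as follows, on the log2 scale. In aCSF1R against Ctrl-IgG, Ccl8 was -0.10 with size factors, -0.0732 within title numbers of 4 or less and -0.22 to 0.18 without single libraries, Cx3cr1 was 0.0525 within numbers of 4 or less, and Ccl12 and Ccr2 were 0.38 and 0.35 within 5 or more. Cx3cl1 in IL-10-Fc against Ctrl-IgG was -0.12 as TPM, -0.27 within 4 or less and -0.42 to 0.45 without single libraries. In BF10 against IL-10-Fc, the FPKM sum as a covariate gave 0.32 for Ccl8, 0.28 for Ccl12, 0.0759 for Ccl3, 0.17 for Ccl4 and 0.42 for Ccr2, and title numbers of 5 or more gave 0.92 for Ccl8, 0.32 for Ccl12, 0.34 for Ccl4, 0.62 for Ccr2 and -0.40 for Cx3cl1. Numbers of 4 or less gave 0.11 for Ccl3 and -0.14 for Cx3cr1, and size factors -0.23 for Ccl7. Without single libraries Ccl7 ran from -0.37 to 0.85, Ccl8 from -1.28 to 0.31, Ccl12 from -0.88 to 0.0426, Ccl4 from -0.61 to 0.0681 and Ccr2 from -1.03 to 0.10. Against aCSF1R, IL-10-Fc gave 0.0282 for Ccl3 with size factors and 0.19 for Cx3cl1 within numbers of 5 or more. The cause of these changes was not tested. FPKM carry no counts, so what depth limits could not be given.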

Other observations

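The receptors of the treatments were read beside the 9 genes. Csf1r, the target of the antibody, was at 7.33 to 22.1 FPKM in Ctrl-IgG, 6.91 to 8.14 FPKM in aCSF1R, 11.7 to 48.6 FPKM in IL-10-Fc and 13.1 to 79.1 FPKM in BF10. Within IL-10-Fc and BF10 it was at 11.7 to 14.1 FPKM in the 3 libraries with title numbers of 4 or less and at 48.6, 79.1 and 67.0 FPKM in the other 3, the libraries in which Cx3cr1 was also high. So were 54.6% of the 14013 genes tested there, without overlap. Il10ra, a chain of the interleukin-10 receptor, was at 5.03 to 10.98 FPKM in Ctrl-IgG, 3.44 to 4.71 FPKM in aCSF1R, 3.09 to 7.21 FPKM in IL-10-Fc and 4.75 to 11.9 FPKM in BF10, and was called in no comparison.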
